A study of Drosophila melanogaster with 2 samples.

Results

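Of the 30000 peaks in the pooled list for CG18011-GFP, 251 (0.837%) had their summit on chromosome 4 or in the stretches of 2L, 3L, 3R and X nearest the centromere. These 251 peaks are described here. They were chosen by position in the dm6 assembly alone: the last 1.51 Mb of 2L, the last 5.21 Mb of 3L, the first 4.2 Mb of 3R, the last 1.14 Mb of X, and the whole of chromosome 4. Chromosome 4 held 157 of them, X 57, 2L 27, 3R 7 and 3L 3. Of the 251, 15 were also in the authors' thresholded list, which uses the irreproducible discovery rate (IDR), a measure of agreement between replicates: 10 on chromosome 4, 2 on 3R, 2 on X, 1 on 2L and 0 on 3L. The other 24176 pooled peaks of 2L, 3L, 3R and X were the comparison, and 2R was not compared.

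The chromatin came from whole Drosophila melanogaster embryos of pooled sex, collected from 0 to 24 h, so all tissues and stages of embryogenesis were mixed. All embryos carried a stable transgene that adds GFP to the C terminus of CG18011, a predicted zinc-finger protein, and precipitation used an antibody to GFP. The 2 biological replicates form 1 group, with 1 library each, and were sheared by sonication to 200 to 800 bp. There is no untreated or mutant group, the control listed for the libraries was not analysed here, and the sources used here do not give the read depth.

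Pericentric heterochromatin flanks the centromeres, carries much transposon-derived sequence, and is packaged with histone H3 methylated at lysine 9 and with Heterochromatin Protein 1 (HP1). The small chromosome 4 is an unusual case: it is bound by HP1 along most of its length, yet most of its genes are actively transcribed, and these are also bound by the chromosome-specific protein POF. The genes that do reside in pericentric heterochromatin, among them light and concertina, are often long, and some need the heterochromatic setting for normal expression.

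The sequences below, from the RefSeq genome of build dm6, show the IDR peaks whose stretch is free of annotated untranslated sequence, with the strongest peak of the 3L window. They are shown so that the few strong sites of these windows can be compared base by base. Capitals mark a match to a motif that was searched for on both strands: the DREF element TATCGATA, the E-box CACGTG, the GAGA repeat GAGAGAG, or AAAGCT. On one strand or the other, AAAGCT is part of the words ranked 1, 2 and 6 by excess at the strongest peaks of the arms. The words ranked 3, 4, 5, 7, 8 and 9 hold only A and T, and that ranked 10 is AATCAGCT. Matches to TATAAA, also searched for, are not marked, and the RpS3A and l(1)G0196 stretches contain it. For the peaks at CG41099, beta-Man, RpS3A and RpL10, the 80 bases just before the start site are shown on the strand of the gene, because the summit lies at the start of a transcribed leader. For the rest the 81 bases centred on the summit are shown on the plus strand.
CG41099, 3R:3846649-3846728, plus strand: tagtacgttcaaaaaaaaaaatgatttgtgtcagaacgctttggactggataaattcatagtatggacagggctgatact
beta-Man, 3R:4197126-4197205, plus strand: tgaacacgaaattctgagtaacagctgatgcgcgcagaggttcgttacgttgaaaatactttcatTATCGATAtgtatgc
lgs, 4:424784-424864, plus strand: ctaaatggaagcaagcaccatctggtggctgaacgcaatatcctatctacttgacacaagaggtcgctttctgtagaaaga
gw, 4:660115-660195, plus strand: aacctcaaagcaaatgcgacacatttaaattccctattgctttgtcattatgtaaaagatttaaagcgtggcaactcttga
zfh2, 4:497852-497932, plus strand: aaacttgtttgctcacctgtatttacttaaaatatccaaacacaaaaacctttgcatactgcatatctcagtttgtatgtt
RpS3A, 4:67208-67287, minus strand: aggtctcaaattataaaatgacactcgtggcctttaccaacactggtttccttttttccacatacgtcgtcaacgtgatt
PlexA, 4:1027221-1027301, plus strand: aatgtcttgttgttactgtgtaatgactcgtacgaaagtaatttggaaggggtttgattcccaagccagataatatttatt
CaMKI, 4:455600-455680, plus strand: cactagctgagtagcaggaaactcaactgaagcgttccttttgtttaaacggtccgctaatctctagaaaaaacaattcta
CG3635, 2L:22179393-22179473, plus strand: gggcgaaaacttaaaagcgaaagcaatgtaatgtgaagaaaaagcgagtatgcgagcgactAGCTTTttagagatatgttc
X intergenic, X:23375256-23375336, plus strand: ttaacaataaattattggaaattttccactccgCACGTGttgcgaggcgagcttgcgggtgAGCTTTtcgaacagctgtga
l(1)G0196, X:22488401-22488481, plus strand: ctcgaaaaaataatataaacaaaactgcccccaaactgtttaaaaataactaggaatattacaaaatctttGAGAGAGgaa
RpL10, 3L:23095472-23095551, minus strand: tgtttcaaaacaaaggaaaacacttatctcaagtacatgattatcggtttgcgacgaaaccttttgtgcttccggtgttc

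Peaks were much sparser in the pericentric windows than in the arms they end, and chromosome 4 was intermediate. The rest of the 4 arms held 254 pooled peaks per Mb. Chromosome 4 held 116.5 per Mb, the X window 49.9, the 2L window 17.8, the 3R window 1.67 and the 3L window 0.576. Relative to the rest of its own arm the density was 0.202 in the X window, 0.0732 in the 2L window, 0.00673 in the 3R window and 0.00207 in the 3L window. Chromosome 4, which has no arm outside the rule, stood at 0.459 of the density of the 4 arms.

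The libraries differed in how many peaks they placed in the windows, and most of all on 3L. Replicate 1 had 114 peaks in the 3L window and replicate 2 had 3. In the 3R window the counts were 47 and 9, in the 2L window 64 and 27, in the X window 74 and 58, and on chromosome 4 they were 132 and 201. Replicate 1 was thus higher in all 4 pericentric windows and lower on chromosome 4, while outside the windows the 2 lists were nearly equal in size, with 24212 and 24068 peaks. As densities over both libraries (mean ± SD, n = 2), chromosome 4 had 123.5 ± 36.2 peaks per Mb, the X window 57.8 ± 9.91, the 2L window 30.1 ± 17.3, the 3L window 11.2 ± 15.1 and the 3R window 6.67 ± 6.40, against 253.6 ± 1.07 in the rest of the arms. The order of chromosome 4, X and 2L was the same in each library. The order of 3L and 3R was not: 3L was the higher of the pair in replicate 1 and the lower in replicate 2, within a spread as large as the values themselves. In each library every window stayed below the rest of its arm (chromosome 4 below the 4 arms), at 0.0430 to 0.385 of it in replicate 1 and at 0.00209 to 0.590 in replicate 2.

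**Figure D1:**
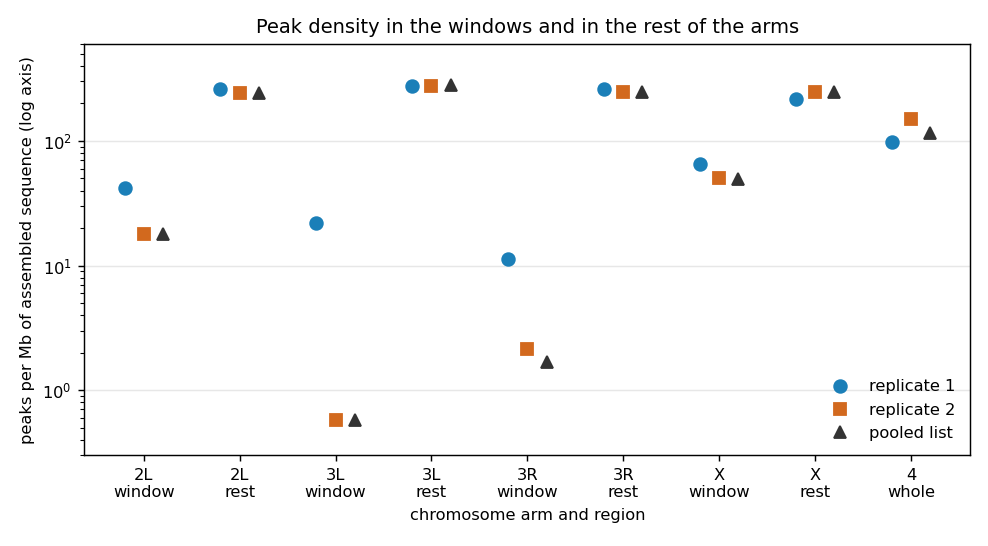
Peaks per Mb of assembled sequence (log axis) in each pericentric window, in the rest of the same arm and on the whole of chromosome 4; circles are replicate 1, squares replicate 2 and triangles the pooled list. All windows lie below the rest of their arm in every list, and the libraries stand farthest apart in the 3L window, at 21.9 and 0.576 peaks per Mb.

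Most peaks that replicate 1 placed in the windows had no counterpart in replicate 2. Of its 431 window peaks, 112 (26.0%) overlapped a peak of replicate 2 by at least 1 bp, against 54.9% of its peaks in the rest of the arms. On 3L it was 1 of 114 (0.877%), and on chromosome 4 it was 70 of 132 (53.0%). In the other direction, 71 of the 201 replicate 2 peaks on chromosome 4 (35.3%) overlapped a replicate 1 peak, against 57.1% in the rest of the arms. Chromosome 4 was thus near the rest of the arms in one direction and below it in the other. Of the replicate 1 window peaks, 315 overlapped no pooled peak, with a median signal of 13.4 in that library, where the weakest listed peak had 10.6. Of those 315, 4 were among the strongest of replicate 1 by the same count. That share was 4.87% of all its window peaks and 11.0% of its peaks in the rest of the arms. On chromosome 4 these strong peaks lay 288 bp upstream of a start site within Sox102F and 4397 bp upstream of fuss. Sox102F is a Sox-family transcription factor and fuss a Ski-family corepressor. On 3L they lay 354 bp upstream of CG12768 and 1056 bp upstream of l(3)80Fg. These 4 were named after their values were seen. What sets the libraries apart in the windows was not tested.

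Assembled sequence in the windows is richer in repeats and poorer in genes. Repeat-masked bases made up 44.2% of the 3R window, 39.2% of 3L, 38.8% of 2L, 33.8% of X and 28.1% of chromosome 4, against 17.5% of the rest of the arms. Counting unmasked bases only, the densities relative to the rest of the arm rose to 0.242 for X, 0.0996 for 2L, 0.0102 for 3R, 0.00287 for 3L and 0.533 for chromosome 4. The order of the windows was the same, and each stayed below 1. Protein-coding genes stood at 59.3 per Mb on chromosome 4, 33.3 on X, 24.4 on 2L, 8.06 on 3L and 3.33 on 3R, against 114.3 in the rest of the arms. Per protein-coding gene, chromosome 4 had 1.96 pooled peaks, close to the 2.22 of the rest of the 4 arms. The X window had 1.5 per gene against 2.57 in the rest of X, the 2L window 0.730 against 2.05, the 3R window 0.5 against 2.03 and the 3L window 0.0714 against 2.37. By library these values parted: in replicate 1 the 3L window had 2.71 peaks per gene against 2.36 in the rest of 3L and the 3R window 3.36 against 2.13, while in replicate 2 they had 0.0714 against 2.34 and 0.643 against 2.02. Chromosome 4 had 1.65 per gene in replicate 1 and 2.51 in replicate 2, against 2.23 and 2.21 in the rest of the 4 arms. Per gene, a deficit on 3L and 3R was therefore seen in the pooled list and in replicate 2, and the reverse in replicate 1. Here and below the pooled list is not independent of the libraries. Replicate 2 covered 90.0% of the 251 pooled peaks and replicate 1 43.4%. The ability of reads to be placed uniquely was not measured here.

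Within the pericentric windows most pooled peaks lay within 0.2 Mb of the outer edge that the rule sets. Of the 94 pericentric members, 56 lay within 0.2 Mb of the edge, 20 between 0.2 and 0.5 Mb, 17 between 0.5 and 1 Mb, and 1 in the remaining 8.07 Mb. That 1 deep peak, at 3L:26014059-26014474, lies 155 bp upstream of l(3)80Fg, with a pooled signal of 59.1. Replicate 2 had 64, 18, 15 and 0 peaks in the same 4 zones, and replicate 1 had 88, 61, 62 and 88. The deepest zone was therefore empty in replicate 2 and nearly so in the pooled list, which is not independent of it, and not in replicate 1. By arm, the 56 were 30 on X, 21 on 2L, 3 on 3R and 2 on 3L. On 3R the other 4 of the 7 peaks lay between 0.2 and 0.5 Mb. Most of the deepest zone is on 3L (4.21 Mb) and 3R (3.2 Mb), the windows with the fewest peaks. Depth and arm are therefore not separated in these counts. The values at the edges show where the chosen limits fall. On 3R the last peak inside was the strong one at beta-Man, 2778 bp from the edge, with a pooled signal of 1758, and the first outside lay 14267 bp from the edge near CG14636, with 203.4 and also in the IDR list. On 2L the peak just inside was at CG3651 with 86.7, and the one just outside, near CG11629, had 296.5. On 3L the corresponding values were 52.9 inside, near RpL10, and 84.65 outside, near CG11131. On X the first peak inside was near CG14621 with 77.4, while the first outside, near DIP1 with 126.5, was 768238 bp from the edge, a stretch of X with no pooled summit.

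The peaks of the windows had about the same middle signal as the others but fewer strong ones. The pooled signal is the authors' value for a peak, in the unit of their peak caller. Its median was 61.7 among the 251, with quartiles of 48.3 and 86.5, against 65.2 with quartiles of 49.0 and 104.5 in the rest of the arms, a ratio of 0.947. In the libraries the medians were 13.9 against 16.1 in replicate 1 and 54.1 against 57.5 in replicate 2. The lower quartile and the median thus nearly coincide, and the upper quartile was lower in the windows. The strongest peak of the windows reached 4204 and the strongest of the rest of the arms 61361. The pooled list ends at 38.5, which fixes the low end of both.

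The IDR list consists of exactly the strongest pooled peaks, down to one level of signal, so a share in it is the share above a pooled signal of 178.9. That share was 11.0% over the whole pooled list and 11.0% in the rest of the 4 arms. Among the 251 it was 5.98% (95% exact binomial interval 3.38 to 9.67). The intervals here cover counting error only, treat peaks as independent, and are descriptions rather than tests. Chromosome 4 alone had 6.37% (3.10 to 11.4) and the pericentric windows together 5.32% (1.75 to 12.0). Both shares lay below the 11.0%, and both intervals reach it; only that of all 251 does not. With the pericentric windows wider by 0.2 Mb it was 30 of 365 (8.22%, 5.61 to 11.5), an interval that reaches the background too. IDR peaks per Mb in the windows were 0.0399 of the rest of the arms, and 0.0751 with the wider windows. In each library 19 of the 251 were covered by one of its strongest peaks, counted to the same number. That coverage was not counted for the other peaks and cannot be set against the 11.0%.

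**Figure D2:**
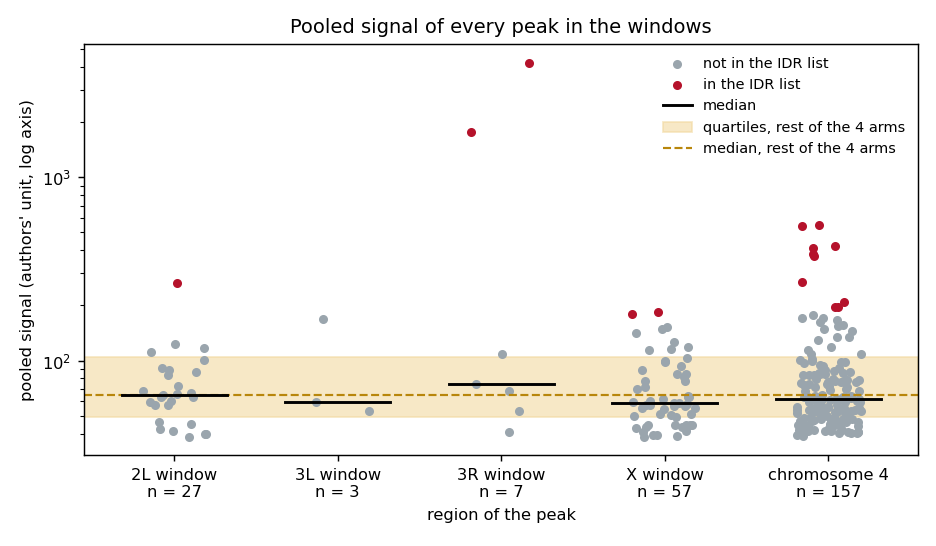
Pooled signal (log axis, authors' unit) of each of the 251 peaks by region, in red where the peak is in the IDR list, with the median of each region as a black line and the median and quartiles of the rest of the arms as a dashed line and a band. The medians lie close to the dashed line at 65.2, and the 3R window holds the 2 strongest peaks, at 4204 and 1758.

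The 2 strongest peaks of the windows were both at start sites on 3R, in the window with the fewest genes per Mb. To set the libraries side by side, each peak's signal was divided by the median of that library over all IDR peaks, so that 1 is a typical IDR peak. The peak at CG41099 (3R:3846276-3847162, pooled signal 4204, rank 139 of 30000) had its summit 18 bp downstream of the start site. Its relative signal was 12.4 in replicate 1 and 15.4 in replicate 2 (13.9 ± 2.14, mean ± SD, n = 2). The peak at beta-Man, a gene for a lysosomal mannosidase (3R:4196954-4197488, pooled signal 1758), had its summit 16 bp downstream of the start site and the relative values 5.21 and 6.40 (5.80 ± 0.844). Both stood above every other member in each library. The beta-Man peak carries the DREF element printed in capitals above, upstream of the start site; the CG41099 stretch shown has no capitals.

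On chromosome 4 the 4 strongest peaks lay nearest to the coding start sites of unc-13, Cals, lgs and gw. The peak at unc-13, which encodes a synaptic vesicle priming factor (4:905138-905409), had a pooled signal of 549, with relative values of 1.52 and 2.05. Its summit lies within unc-13, 442 bp upstream of an internal start site of that gene and 84 bp from the start site of the pseudogene CR43361. The peak in an untranslated exon of Cals, the gene of the postsynaptic membrane protein Calsyntenin (4:1113178-1113476), had 539, with relative values of 1.96 and 1.86, 9605 bp from the nearest coding start site. These 2 peaks were above the typical IDR peak in both libraries. An intergenic peak (4:424711-424924) whose nearest coding start site, 19087 bp away, belongs to lgs, a coactivator of Wingless signalling, had 419, with 1.70 in replicate 1 and 1.38 in replicate 2. It lay 1243 bp upstream of the noncoding gene lncRNA:CR43437, so lgs is only a label by distance. The peak within gw, the gene of the GW182 protein of microRNA silencing (4:659983-660187), 172 bp upstream of an internal start site, had 411.5, with 1.31 and 1.46.

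The next chromosome 4 peaks were near the typical level or under it. The intergenic peak 3918 bp upstream of zfh2, a zinc-finger homeodomain transcription factor (4:497790-498030), had a pooled signal of 383 and relative values of 0.95 and 1.47. The peak 4 bp from the start site of RpS3A, a protein of the small ribosomal subunit (4:67151-67343), had 374, with 1.14 and 1.35. The coding-exon peak in mGluR, the metabotropic glutamate receptor (4:942762-943177), had 268, with 0.809 and 0.987. RpS3A was above the typical IDR peak in both libraries, mGluR below it in both, and the peak near zfh2 on either side of it. The intergenic peak nearest CaMKI, a calcium/calmodulin-dependent kinase (4:455432-455847, 9062 bp away), had 208, with 0.441 and 0.788. The peak 160 bp upstream of PlexA, a receptor for semaphorins (4:1027197-1027362), had 195, with 0.948 and 0.617. The peak at ATPsynbeta, the beta subunit of mitochondrial ATP synthase (4:1031661-1032076), had 196 and lay 5 bp from its start site and 112 bp from that of CG11076. It had no peak in the list of replicate 1 and a relative value of 0.730 in replicate 2. Near these weakest values the IDR list was therefore not carried by both libraries at each site.

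The 2L and X windows held 3 IDR peaks, and the 2 on X were the weakest of the 15. On 2L, the peak in an intron of CG3635 (2L:22179375-22179525) had a pooled signal of 266, a relative value of 0.933 in replicate 1, and no peak in replicate 2. On X, the peak in an exon of lncRNA:CR43493 within l(1)G0196, which encodes an inositol phosphate kinase (X:22488233-22488648), had 179.5 with relative values of 0.689 and 0.588. The other X peak (X:23375088-23375503, 184.5) was intergenic, had no peak in replicate 1 and 0.677 in replicate 2. All bases within 100 bp of its summit are repeat-masked, the nearest annotated start site is that of the ribosomal RNA gene 2SrRNA:CR45864 at 83596 bp, and the nearest coding one, ATbp, is 269293 bp away. It is thus assigned to no gene here. Over all 15 IDR members, 13 were in the list of replicate 1, 14 in that of replicate 2 and 12 in both.

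**Figure D3:**
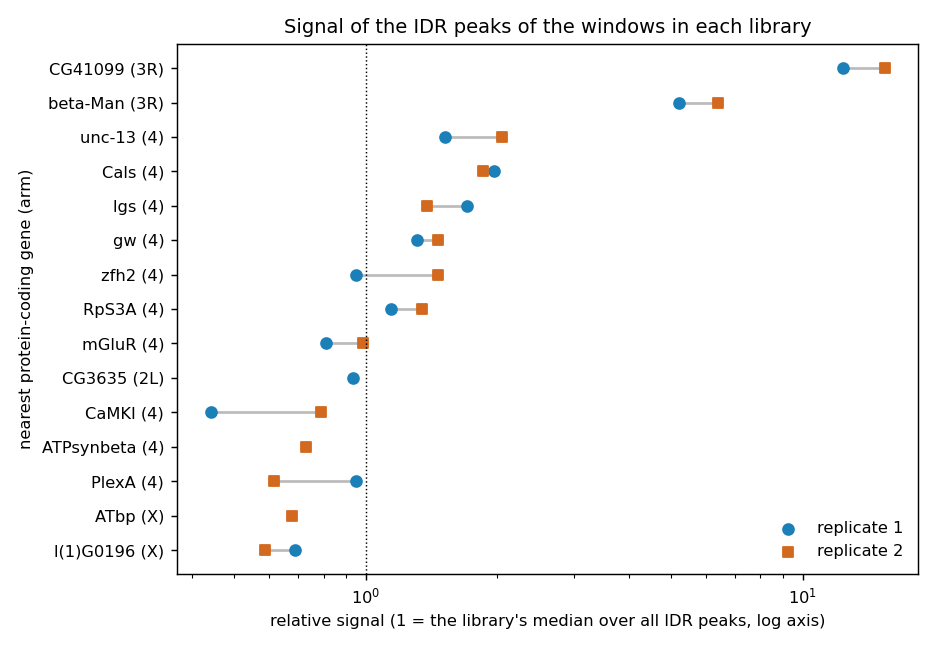
Relative signal (log axis; 1 is the median of the library over all IDR peaks) of the 15 IDR members in replicate 1 (circles) and replicate 2 (squares), named by the nearest protein-coding gene, which for the peak labelled ATbp is 269293 bp away; a missing symbol means no peak in that library. The 2 peaks on 3R stand apart at 12.4 and 15.4 and at 5.21 and 6.40, and the others lie between 0.441 and 2.05.

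The 3L window had no IDR member. Its strongest pooled peak (3L:23095265-23095680, pooled signal 167.6, under the lowest IDR signal) was 2 bp from the start site of RpL10, a protein of the large ribosomal subunit. A second peak near RpL10, 1442 bp into the gene, had 52.9. In all, 109 (43.4%) of the 251 were covered by a peak of replicate 1 and 226 (90.0%) by one of replicate 2, against 54.1% and 87.8% of the other peaks, and 11 were covered by neither. Where both libraries had a value, the SD of the relative signal had a median of 17.4% of the mean.

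Window summits lay at annotated start sites more often than window sequence does, as summits did in the rest of the arms. Start sites within 500 bp were counted for genes of any kind. Of the 251, 102 (40.6%, 34.5 to 47.0) were at a start site, against 33.4% of the other peaks. Chromosome 4 had 38.9%, where 10.7% of the sequence lies that close, a ratio of 3.62. The X window had 45.6% against 5.91% of the sequence, a ratio of 7.72, and the 2L window 33.3% against 4.31%, a ratio of 7.73. In the rest of the arms the ratio was 2.26, with 14.8% of the sequence near a start site. The library values moved this: replicate 1 had 24.4% in the windows against 27.3% outside and replicate 2 had 38.6% against 34.2%, so the sign of the difference from the rest of the arms was not the same in both. The ratio to sequence stayed above that of the rest of the arms in both libraries, at 3.24 and 3.33 against 1.85 and 2.31 for chromosome 4.

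**Figure D4:**
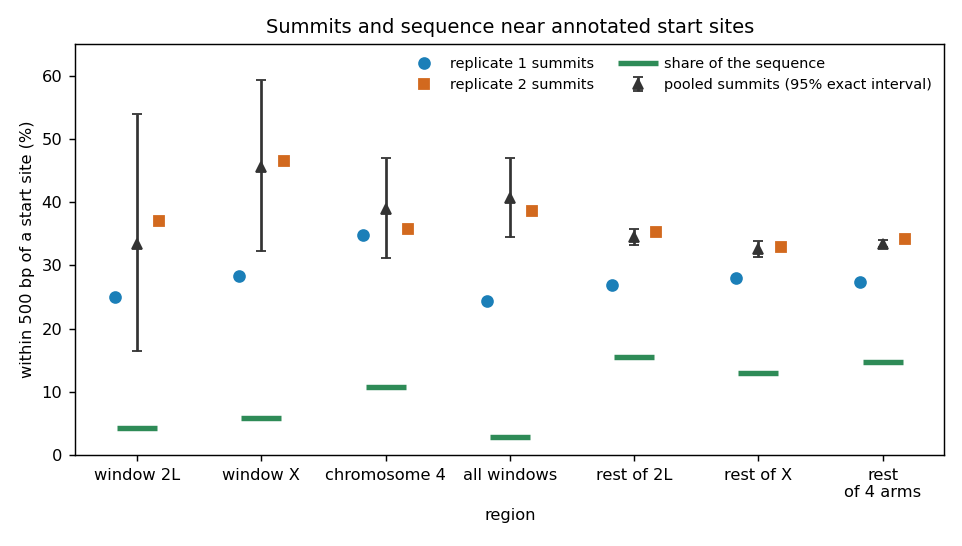
Share (%) of summits within 500 bp of an annotated start site in the pooled list (triangles with 95% exact intervals), replicate 1 (circles) and replicate 2 (squares), with the share of the sequence itself as a green bar, for the 3 regions with over 20 pooled peaks, all windows together and the rest of the arms. Every region's summits lie above its bar, and the bars are lowest in the windows, at 2.88% over all of them against 14.8% in the rest of the arms.

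Outside the windows, strong peaks were more frequent at start sites than elsewhere, and in the windows both shares were low. In the rest of the arms 1631 of 8086 start-site peaks (20.2%) were in the IDR list, against 1037 of 16090 (6.45%) elsewhere. Among the 251 it was 7 of 102 (6.86%, 2.80 to 13.6) at start sites and 8 of 149 (5.37%) elsewhere. The shares away from start sites were close, and the interval at start sites lay below the 20.2% of the arms. The median pooled signal at start sites was 73.4 in the windows and 85.95 outside, and away from them it was 58.7 and 59.4. Whether the difference between start sites and other places itself differs between the windows and the arms was not tested.

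**Figure D5:**
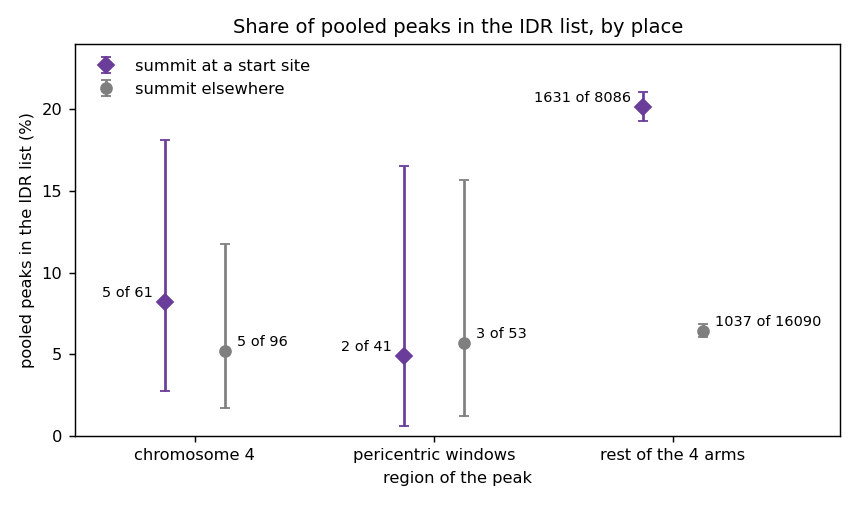
Share (%) of pooled peaks that are in the IDR list, with 95% exact intervals for counting error, for summits within 500 bp of a start site (diamonds) and elsewhere (circles), on chromosome 4, in the pericentric windows and in the rest of the arms. In the rest of the arms the start-site share was 20.2% and the share elsewhere 6.45%; in the 2 other regions the intervals of both places overlap.

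Counted by gene, the share of start sites with a pooled peak on chromosome 4 was near that of the arms, and the share with an IDR peak was lower. Of its 80 protein-coding genes, 44 (55.0%) had a pooled summit within 500 bp of a start site, against 5888 of 10882 (54.1%) in the rest of the arms. An IDR summit was there for 6 of the 80 (7.50%), against a background of 18.5%. In the pericentric windows an IDR summit was at 2 of 131 genes (1.53%), those of CG41099 and beta-Man. Over all windows it was 8 of 211 (3.79%, 1.65 to 7.33). Among genes with a pooled peak, 13.6% on chromosome 4 and 34.1% in the rest of the arms had an IDR peak.

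Among 17 chromosome 4 genes listed as transcription and chromatin regulators, 9 had a pooled start-site summit and 0 had an IDR peak. The IDR share was 7.50% over all chromosome 4 genes and 18.5% in the rest of the arms. At this number the list cannot be told from chromosome 4 as a whole. The strongest start-site summits were zfh2 at 171, lgs at 170.6 and Pur-alpha, a single-stranded nucleic acid binding protein, at 156.1. All were under the IDR limit of 178.9. ci, the transcription factor of Hedgehog signalling, had 118.8, Hcf, a chromatin cofactor, 85.6, Asator, a protein kinase, 84.3, and ey, the Pax6 factor of eye development, 78.3. pan, the TCF factor of Wingless signalling, had 61.6 and Mitf 55.8. The pooled list had none at the start sites of toy, sv, pho, Sox102F, onecut, fuss, MED26 and dati. The pooled share of 52.9% is close to the 54.1% of all genes in the rest of the arms. The list is not the whole class. It counts Asator, a kinase, and leaves out Taf3, which had a pooled start-site peak of 79.25. By library, 7 of the 17 had a start-site peak in replicate 1, Sox102F among them, and 9 in replicate 2.

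Among 21 chromosome 4 genes listed as signalling, neuronal and muscle genes, 12 (57.1%) had a pooled start-site peak and 2 (9.52%), unc-13 and PlexA, an IDR peak. The shares were 55.0% and 7.50% of all chromosome 4 genes, and 54.1% and 18.5% of genes in the rest of the arms. By library, 9 had one in replicate 1 and 16 in replicate 2. A peak of 162.1 lay between Dyrk3, a protein kinase, and Cadps, a factor of dense-core vesicle release, within 500 bp of both. CaMKII, the calcium/calmodulin-dependent kinase of synaptic plasticity, had 145.1, and the start of mGluR had 108.8. The pooled list had none at the start of bt, the giant muscle protein, nor at Eph, Ephrin, Crk, mav, Gat, Ekar, Syt7 and myo, of which Eph, Ephrin, mav and myo had one in replicate 2. Of 14 chromosome 4 genes listed as housekeeping, 11 (78.6%) had a pooled start-site peak and 3 (21.4%) an IDR peak, namely RpS3A, gw and ATPsynbeta. That list is loose, since the 11 include Cals, described above as a postsynaptic protein. Its shares are therefore not those of strictly housekeeping genes. The IDR share rests on 3 genes, beside 7.50% of all chromosome 4 genes and 18.5% in the rest of the arms. Zip102B, a zinc transporter, was next with 129. By library, 8 of the 14 had a start-site peak in replicate 1 and 10 in replicate 2.

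The genes of pericentric heterochromatin known from mutants or cloning mostly had no peak in the pooled list or in replicate 2, whereas replicate 1 had a peak within 18 of the 25. Counts within genes depend on gene length, here from 0.765 kb (Gpb5) to 1966 kb (Myo81F), and were not made for all genes. For this and the other gene lists, the start-site shares of all genes were not counted by library. Of the 25, 3 (12%) had a pooled start-site peak and 0 an IDR peak, against 26 (19.85%) and 2 (1.53%) of the 131 genes of the pericentric windows and 54.1% and 18.5% in the rest of the arms. All 3 are on X: stnB, which acts in synaptic vesicle recycling, with 84.4, su(f), an mRNA 3' end processing factor, with 63.6, and fog, the secreted ligand of gastrulation, with 62.0. RpL5 had 2 pooled peaks within the gene and none at its start. No pooled peak was at the start or within lt, cta, vtd (the cohesin subunit Rad21), Set1 (an H3K4 methyltransferase), AGO3 (a piRNA-pathway Argonaute), RpL15, Dbp80, Snap25, alpha-Cat, Myo81F and spok. In replicate 2 the 3 genes on X each had a start-site peak and no other of the 25 did, while replicate 1 had one at 10 of the 25, those 3 with lt, tio, RpL5, alpha-Cat, Set1, lovit and RpL15. Within Myo81F, a very long gene of the 3R window, replicate 1 had 12 peaks and replicate 2 had 0. Away from X, no gene of this list had a start-site peak in both libraries.

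Several genes, some of them long, held many weak peaks. Asator had 11 pooled summits within it, zfh2 11, CG42748 on 2L 11, fog 10 and CG12576 on X 8. Of these, 0 were in the IDR list, which held 5.98% of the 251. Per 10 kb of gene the counts were 5.62 in Asator, 2.82 in zfh2, 3.14 in CG42748, 3.24 in fog and 10.7 in CG12576. The rest of the arms held 254 pooled peaks per Mb. In zfh2, CG42748 and fog, genes of 31 to 39 kb, the density was thus near that of the arms. fog overlaps CG42346, which had 9 summits, partly the same. The strongest within Asator had 176.2, within CG42748 111.4, within fog 103.7 and within zfh2 79.6. Replicate 2 had 14 peaks within Asator, 12 within CG42748 and 11 within zfh2, and replicate 1 had 3, 5 and 4. These genes were chosen by their count of peaks, after the values were seen. Along chromosome 4, stretches of 200 kb held 31, 15, 54, 11, 17 and 23 pooled peaks in order, and the shorter last stretch held 6. The 54 of the third stretch, which contains Asator and zfh2, went with 11 protein-coding genes and 3 IDR peaks; the densest stretch thus had fewer genes than most others.

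Annotated transposons held more window summits than summits elsewhere, but no more than their share of the sequence. Of the 251, 30 (12.0%, 8.21 to 16.6) had the summit in one, where transposons make up 16.4% of the sequence. In the rest of the arms it was 85 of 24176 (0.352%), of 4.01% of the sequence. On chromosome 4 it was 23 of 157. INE-1, a short element frequent in heterochromatin, had 14, the element 1360 had 6, and 8 further families had 1 or 2 each. Of the 30, 0 were in the IDR list, which held 5.98% of the 251, and the highest had 114.3. At this number the 30 cannot be told from the other members in their IDR share. In the libraries the share was 13.2% for replicate 1 and 9.73% for replicate 2. Of the other places, introns held 27.9% of the window summits against 42.9% outside, coding exons 9.96% against 5.44%, untranslated exons 6.77% against 4.32%, and intergenic sequence 12.4% against 13.1%.

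The leading word of the strongest peaks of the arms was about as frequent at the window peaks as at the other pooled peaks. The leading 8-base word, AGCTTTTG or its reverse complement CAAAAGCT, was chosen on the strongest IDR peaks outside the windows, where 52 (15.8%) had it within 100 bp of the summit, against 4 (1.22%) in equal stretches 1000 bp away. It was in 0 of the 15 IDR members, which allows a share of up to 21.8% by the exact interval. Among all 251 it was in 5 (1.99%), against 1.85% of the other peaks, 3.75% of the other IDR peaks and 1.18% of stretches of the same length tiled over the windows. At this number the IDR members cannot be told from the other IDR peaks in this respect. The core AAAGCT, which overlaps that word and was added after the words were seen, was in 36 (14.3%) of the 251, in 14.3% of the others, and in 3 of the 15.

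The DREF element TATCGATA, bound in flies by a factor of housekeeping promoters, was in 12 (4.78%, 2.49 to 8.20) of the 251. It was in 2.22% of the other peaks and 5.21% of the other IDR peaks. In stretches of equal length it was in 0.942% of the window sequence and 0.505% of the rest. TATAAA was in 33.5% against 24.65% of the other peaks, CACGTG in 2.79% against 2.59%, and the Zelda word CAGGTAG in 1.2% against 0.997%. Such stretches had TATAAA in 26.3% of the window sequence and 21.35% of the rest. For TATCGATA and TATAAA the window sequence itself was thus richer in matches. Lower than in the other peaks were GAGAGAG, with 2.39% against 3.92%, the core-promoter word GGTCACACT, with 0.398% against 1.18%, and CACACACA, with 3.19% against 5.89%. CACACACA was in 1.34% of the window sequence and 4.58% of the rest in stretches of equal length, so its share at peaks was above that of the sequence in both. The window peaks were also lower in G and C, with a median of 36.8% within 100 bp against 40.3%, and no match count was adjusted for this.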

How the data were processed

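Chromatin immunoprecipitation with sequencing was measured in 2 libraries of 1 group, the biological replicates of CG18011-GFP embryos. The authors deposited peak lists in narrowPeak format on dm6 and dm3: 1 per library, 1 for the pooled libraries, and the IDR-thresholded list. The deposited signal per peak has the unit of the caller the authors used. Neither the caller, nor its scaling, nor the depth is given by the sources used here, so levels were compared within a list or after division by a library's median over IDR peaks (64.6 and 222.8).

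Peaks were placed by summit on dm6. Start sites, genes and transposons came from the Ensembl release 115 annotation, and masked bases and sequences from the RefSeq dm6 genome. Shares carry exact (Clopper-Pearson) 95% intervals for counting error. No p-value was computed, since peaks are not replicates. With 1 group there was no contrast, and nothing in the labels names a batch. Peaks named were the 5 strongest IDR members per window, other IDR members among the 25 strongest or at a listed gene's start site, the peaks of a window with no IDR member, and those next to each edge. The members, 4 gene lists and 7 motifs were chosen with earlier results of these data known. The counting steps were tested on simulated data. Alternatives covered the window edges, the libraries, the start-site distance, the IDR threshold, the masked length and the overlap rule. Python 3.11.15, numpy 2.4.6, pandas 2.3.3, scipy 1.17.1 and matplotlib 3.10.9 were used.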

Additional observations from a re-analysis of the deposited data

How the results depend on the processing

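Of 74 recalculations of 10 results, 35 stayed within the spread between libraries and 39 moved beyond it. These counts are only a rough guide, because the spread is the SD of 2 values. It was 0 for the share of genes with an IDR start-site summit and for the leading word, so any change there counted as a move. The count on chromosome 4 had no spread, and its dm3 value was counted as unmoved. In 2 of 43 recalculated shares the sign of the difference from the rest of the arms turned: the start-site share was 24.4% against 27.3% in replicate 1 alone (40.6% against 33.4% in the pooled list), and that of IDR members 63.3% against 61.0% with wider windows (46.7% against 61.1%). With single libraries in place of the pooled list, and as many of their strongest peaks (strong) as the IDR list holds, the members numbered 298 to 431, the strong share 4.87 to 5.37%, the density ratio 0.0879 to 0.126, the strong-peak density ratio 0.0427 to 0.0560, the signal ratio 0.868 to 0.942, the start-site share 24.4 to 38.6%, that of strong members 56.25 to 57.1%, and genes with a strong start-site summit (bound) 5.21% in both. Leaving out chromosome 4 gave 94 members, 5.32% in the IDR list, density ratios of 0.0307 (pooled) and 0.0148 (IDR), 40% of IDR members at start sites and 1.53% of genes bound; chromosome 4 alone gave 157, 6.37%, 0.459, 0.265, 50% and 7.50%. Windows wider by 0.2 Mb gave 8.22% in the IDR list, an IDR density ratio of 0.0751, 63.3% at start sites, 7.24% of genes bound and 3.33% with the leading word. Windows narrower by 0.2 Mb gave 50% at start sites and 4.27% of genes bound. The stronger part of the IDR list gave 3.19%, 62.5% and 2.37% for the IDR share, start sites and bound genes. Start sites within 250 bp gave 30.3% of members and 3.32% of genes bound, and within 1000 bp 55.0% of members. Unmasked length gave density ratios of 0.101 (pooled) and 0.0547 (IDR), and overlap by 1 bp an IDR share of 7.57%.

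No paired analysis was possible because both libraries belong to 1 group. Pooled counts in the 3L window rest on 3 peaks, and 114 peaks of replicate 1 there have little counterpart in replicate 2. The IDR members number 15, so their shares have wide intervals. Peaks cannot be counted where reads cannot be placed, and the unassembled part of the heterochromatin was not analysed here.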

Other observations

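On the older dm3 assembly chromosome 4 held 151 pooled peaks and 10 IDR peaks, against 157 and 10 on dm6. The separate heterochromatin sequences of 2L, 3L, 3R and X in dm3 held 15 pooled peaks and 1 IDR peak, on the 3R sequence. Replicate 1 had 89 peaks on them and replicate 2 had 13, so the gap between the libraries in heterochromatin is present in the lists of both assemblies.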
